A study of Homo sapiens with 2 samples.

Results

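Long noncoding RNAs (lncRNAs) that leave the promoter of a protein-coding gene in the opposite direction were followed from the DMSO culture to the LBH589 culture of the SK-NEP-1 line. They are 143 probes of the array annotation whose relation to a coding gene read bidirectional in every row, out of 2002 lncRNA probes in the rows used here and 58921 probes measured. Of these, 99 came from the study's list of lncRNAs higher after LBH589 and 44 from its list of lncRNAs lower after LBH589, and both lists were selected on the difference between the same arrays. The members were thus chosen by the values given below, which are a description and were not tested. The 143 probes read 143 transcripts under 126 lncRNA symbols, 111 of them from GENCODE, 19 from RefSeq and 13 from UCSC, and they lie beside 121 coding partners.

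The human cell line SK-NEP-1 is described by the labels as a Wilms tumour line, and other work has classed it with Ewing sarcoma. One culture received 100 nM LBH589 (panobinostat, an inhibitor of the histone deacetylases) and the other the same volume of DMSO, the solvent, each for 24 h, and both are the same unmodified line. RNA freed of rRNA was labelled with Cy3 and hybridised to 1 Arraystar Human LncRNA array per condition, so no difference has a replicate check, and precision is limited by having so few arrays. Differences between the cultures, RNA preparations and labelling reactions cannot be told apart from the treatment. Of 8 markers of kidney progenitors, NCAM1 was in the rows used, at a log2 difference of 2.26, and the other 7 were not analysed here, so the tissue label could not be checked.

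A bidirectional promoter starts a coding gene on one strand and a noncoding transcript on the other, with the starts head to head. Such promoters are usually rich in CpG, free of nucleosomes at the centre and marked by acetylated histones, and RNA polymerase II can load on them facing either way. The noncoding products include host transcripts of small nucleolar RNAs, regulators of neighbouring genes such as HOTTIP, and many RNAs with no known function. Histone deacetylases remove the acetyl groups at these sites, and an inhibitor leaves them in place.

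The promoters themselves are shown first, for 5 partners whose lncRNA start is also in RefSeq, because they carry both directions of transcription in a short stretch. Each line gives the 250 bases before the start of the coding gene (RefSeq windows, GRCh38.p14), read 5′ to 3′ on the strand of the coding gene. Capitals mark the bases between the start of the lncRNA and that of the coding gene. The lncRNA is read from the other strand, so it begins at the last small letter before the capitals and runs to the left.
SEMA5A and SNHG18 (chr5:9546076-9546325, minus strand): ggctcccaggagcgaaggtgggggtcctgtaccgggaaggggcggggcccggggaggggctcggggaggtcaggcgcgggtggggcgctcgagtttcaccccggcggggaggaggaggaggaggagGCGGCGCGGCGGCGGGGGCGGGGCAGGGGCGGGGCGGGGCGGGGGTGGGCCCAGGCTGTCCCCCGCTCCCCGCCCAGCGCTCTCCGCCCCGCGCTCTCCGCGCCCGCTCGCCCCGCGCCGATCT
HOXA11 and HOXA11-AS (chr7:27185233-27185482, minus strand): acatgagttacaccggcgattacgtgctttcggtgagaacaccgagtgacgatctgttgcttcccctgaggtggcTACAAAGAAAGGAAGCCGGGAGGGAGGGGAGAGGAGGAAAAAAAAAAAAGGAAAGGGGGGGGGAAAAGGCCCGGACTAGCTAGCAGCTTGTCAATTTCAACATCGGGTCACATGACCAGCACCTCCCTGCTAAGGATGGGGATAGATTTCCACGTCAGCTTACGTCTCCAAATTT
PARP2 and RPPH1 (chr14:20343385-20343634, plus strand): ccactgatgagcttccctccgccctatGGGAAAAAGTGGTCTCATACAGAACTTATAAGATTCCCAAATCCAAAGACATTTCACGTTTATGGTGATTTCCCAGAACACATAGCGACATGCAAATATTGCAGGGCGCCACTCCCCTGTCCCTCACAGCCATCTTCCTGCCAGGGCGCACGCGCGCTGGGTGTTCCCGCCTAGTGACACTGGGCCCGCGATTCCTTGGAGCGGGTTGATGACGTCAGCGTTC
OSMR and OSMR-DT (chr5:38845762-38846011, plus strand): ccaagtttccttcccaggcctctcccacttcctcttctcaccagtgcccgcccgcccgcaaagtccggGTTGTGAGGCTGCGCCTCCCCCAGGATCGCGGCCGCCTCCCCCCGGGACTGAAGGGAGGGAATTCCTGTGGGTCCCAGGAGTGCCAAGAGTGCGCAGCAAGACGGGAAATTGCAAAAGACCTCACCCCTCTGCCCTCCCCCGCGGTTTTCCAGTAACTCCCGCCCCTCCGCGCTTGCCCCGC
PCBP1 and PCBP1-AS1 (chr2:70087227-70087476, plus strand): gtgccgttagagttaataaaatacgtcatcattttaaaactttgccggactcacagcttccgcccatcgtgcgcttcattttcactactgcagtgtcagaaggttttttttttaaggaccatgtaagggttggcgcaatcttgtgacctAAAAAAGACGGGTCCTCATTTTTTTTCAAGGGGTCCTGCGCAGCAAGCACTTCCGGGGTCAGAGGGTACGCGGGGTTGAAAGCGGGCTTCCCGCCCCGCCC

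The starts were 125 bases apart at SEMA5A, 176 at HOXA11, 224 at PARP2, 183 at OSMR and 102 at PCBP1. The stretch in capitals between them is 1 base shorter each time. The hg19 annotation of the array places the starts 79 bases apart for SNHG18, 318 for HOXA11-AS and 203 for RPPH1. It gives 29 to 170 at OSMR and 110 to 438 at PCBP1, depending on the transcript. The SEMA5A stretch held 6 matches to the GC box GGGCGG, on either strand and some overlapping, and the PCBP1 stretch held 2 beside 1 match to the ETS motif CCGGAAGT. The PARP2 stretch held a match to TGACGTCA, the cyclic AMP response element (CRE), from 14 to 7 bases before the start, as well as matches to the NRF1 motif and to the YY1 motif AAGATGGC. None of the 8 motifs searched matched in the 250 bases at HOXA11, which says only that those letters are not there. A match is a description of letters and not a measured binding site.

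The RNAs at these and a few other promoters were read by probes of 60 bases, printed here because the largest differences and the HOX cluster results rest on them. Coordinates are those of the lncRNA on hg19, counted from 1. Capitals mark a polyadenylation hexamer (AATAAA or ATTAAA) or, where 2 probes share bases, the shared run.
RP11-445F12.1 at LHX1, probe 1 (chr17:35289409-35293921, minus strand): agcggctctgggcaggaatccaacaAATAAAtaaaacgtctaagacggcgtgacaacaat
RP11-445F12.1 at LHX1, probe 2 (chr17:35218935-35293960, minus strand): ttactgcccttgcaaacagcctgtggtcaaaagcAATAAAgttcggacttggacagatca
CTD-2001E22.2 at SEMA5A (chr5:9546402-9549702, plus strand): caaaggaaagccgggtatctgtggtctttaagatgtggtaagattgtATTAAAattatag
SNHG18, listed as LOC100505806, at SEMA5A (chr5:9546312-9550409, plus strand): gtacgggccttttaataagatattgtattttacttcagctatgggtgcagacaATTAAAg
HOTTIP at HOXA13 (chr7:27240056-27242441, plus strand): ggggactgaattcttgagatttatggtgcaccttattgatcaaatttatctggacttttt
HOXA11-AS at HOXA11 (chr7:27225153-27226740, plus strand): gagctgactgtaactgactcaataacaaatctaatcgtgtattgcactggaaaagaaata
RPPH1 at PARP2 (chr14:20811230-20811570, minus strand): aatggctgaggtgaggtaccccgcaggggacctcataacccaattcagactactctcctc
HOXB-AS5 at PRAC (chr17:46800542-46802119, plus strand): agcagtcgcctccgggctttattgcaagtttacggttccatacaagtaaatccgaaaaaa
HOXC-AS3 at HOXC10, probe 1 (chr12:54377455-54378542, minus strand): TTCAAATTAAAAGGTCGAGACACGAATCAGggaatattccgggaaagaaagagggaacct
HOXC-AS3 at HOXC10, probe 2 (chr12:54375293-54378108, minus strand): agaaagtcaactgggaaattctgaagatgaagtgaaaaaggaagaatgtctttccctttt
HOXC-AS3 at HOXC10, probe 3 (chr12:54377234-54378622, minus strand): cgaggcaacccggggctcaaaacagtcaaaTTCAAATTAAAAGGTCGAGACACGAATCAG

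Probes 1 and 3 of HOXC-AS3 shared 30 bases and so are not independent readings of that RNA. Over the 143 members, 9 pairs of probes shared 15 bases or more. A polyadenylation hexamer was present in 23 of the 143 member probes (16.1%) and in 260 of 1859 other lncRNA probes in the rows used (13.99%). Besides its own transcript, the annotation lists further transcripts for 23 of the member probes.

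All 143 lncRNAs lay on the strand opposite to their partner, as the class requires. On hg19 their starts were 10 to 866 bases from the start of the partner (median 234), with 24 within 100 bases, 76 within 250 and 122 within 500. The RefSeq starts on GRCh38 gave -665 for GAS5, -750 for LOC729970, -1032 for SRGAP2B and 103688 for OR2A9P. A negative value means that the starts overlap and are not head to head. Other members with a GRCh38 distance lay 61 to 667 bases from the partner. Windows of the partners of those named are among the 91 below and may not be the shared promoter. Their annotated RNA lengths ran from 285 to 4462 bases with a median of 750. No partner had members in both lists, with 85 partners in the higher list and 36 in the lower list.

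RefSeq windows of 250 bases before and 50 after the start were available for 91 of the 121 partners, and the sequence features below are over these 91. The median GC content was 69.0%, against 62.7% over 15843 protein-coding genes with a window. The observed over expected ratio of CpG had a median of 0.884, against 0.763 over all protein-coding genes. A TATA box (TATAAA, either strand) was found in 4 partner windows (4.40%) against 9.63% of all, and the GC box in 69 windows (75.8%) against 58.5% of all. The NRF1 motif was found in 15 windows (16.5%) against 8.58% of all, the ETS motif in 10 (10.99%) against 6.19%, and the CRE in 5 (5.49%) against 2.59%. The CCAAT box was found in 36.3% against 36.4%, the E-box CACGTG in 7.69% against 8.88%, and the YY1 motif in 3.30% against 3.91%. Partners of higher and of lower members were close in CpG ratio, with medians of 0.903 over 62 windows and 0.863 over 29. The 4 TATA box windows, H2AFZ among them, were all in the higher list.

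Signals are Agilent processed intensities in arbitrary units, and each array was set against its own 75th percentile (189 for DMSO and 108 for LBH589) before a difference was taken. A probe was called measured where both arrays were well above background. Where only 1 was, the dim side took the array's lowest signal still called well above background (21.3 for DMSO and 14.5 for LBH589) unless its own was higher, and the result is written "at least". The only error available is the measurement error of the spots, whose median, as log2, was 0.21 for higher members and 0.22 for lower members, and it does not cover variation between cultures.

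Of the 99 members listed as higher, all were well above background with LBH589 and 57 were so with DMSO. The log2 difference of those 57 ran from 1.90 to 6.92 with a median of 2.58, and the other 42 have a lower bound. Of the 44 members listed as lower, all were well above background with DMSO and 23 with LBH589. The differences of those 23 ran from -4.27 to -1.76 with a median of -2.30, and 20 others have a bound. RP11-125B21.2 at VLDLR, the lipoprotein receptor gene, had a signal of 21.4 with DMSO and 3.16 with LBH589 and gave no usable bound. The median difference of all probes measured on both arrays was -0.04.

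With bounds included, 86 members were at least 2-fold higher and 33 at least 2-fold lower, where 12.3% and 10.2% of the 41574 probes well above background on an array passed those folds. At least 5-fold higher were 52 members and at least 5-fold lower 14, where 2.49% and 1.65% of all such probes passed. Since the lists were made from this difference, nothing is read from these shares. Without scaling between the arrays the 5-fold counts were 18 higher and 27 lower, and after normexp background correction with an offset of 50 and quantile normalization they were 18 higher and 2 lower. The members just on either side of the 2-fold threshold were RP5-977B1.7 at TGIF2, at or below -1.01, and RP11-539G18.2 at C4orf34, at or below -0.99.

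**Figure D1:**
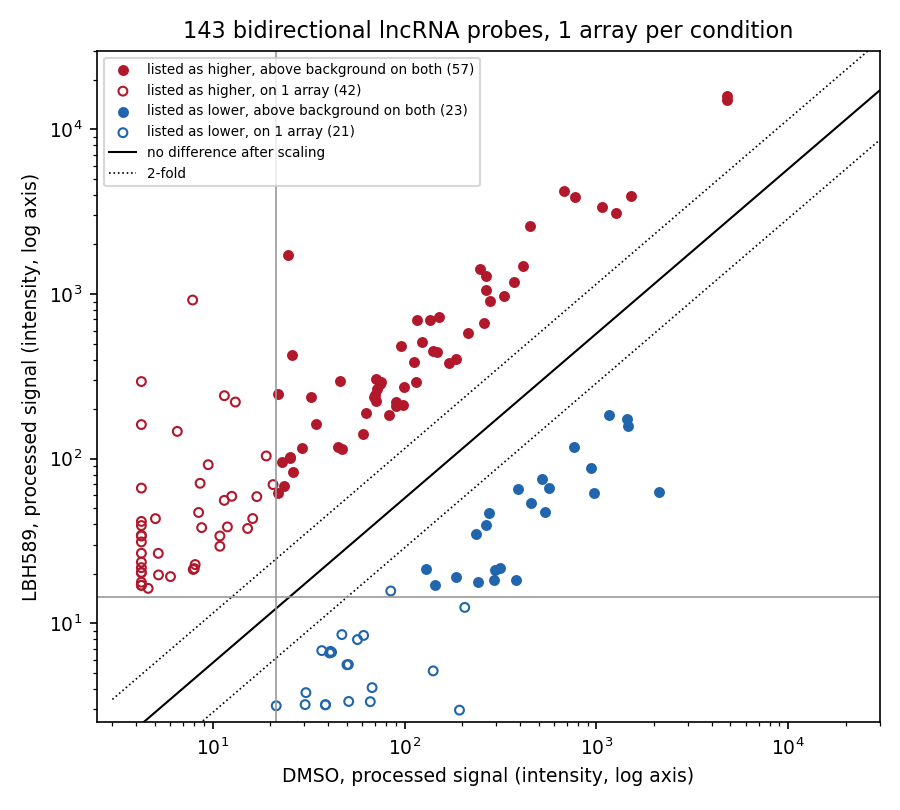
Processed signal of each of the 143 probes with DMSO (x axis) and LBH589 (y axis), both on log axes in intensity units, with grey lines at the lowest signal that passed the background call. Filled points were well above background on both arrays and open points on 1. The higher members lie above the upper 2-fold line and the lower members below the lower one. Open points lie mostly on the dim side of a grey line, many of them far from it. Many open higher members share the DMSO signal of 4.25, the lowest among the higher members.

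Among lncRNAs at genes of development, 9 members were listed as higher and 9 as lower, from 14 partners. The 11 measured on both arrays ranged from -4.27 to 6.92. The -4.27 is from the lncRNA at PRAC, a small nuclear protein gene beside the HOXB cluster that was counted in this group. The largest difference among members measured on both arrays was at LHX1, a homeobox gene needed for the early kidney. Its lncRNA RP11-445F12.1 had a signal of 24.7 with DMSO and 1718 with LBH589, a 121-fold difference (log2 6.92, measurement error 0.32). The DMSO signal was just above background, so the size of the fold rests on a dim spot. The other transcript of RP11-445F12.1, with a separate probe, had 23.0 and 95.6, a log2 difference of 2.86 with an error of 0.34.

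The lncRNA at BMP2K, a kinase induced by bone morphogenetic protein, RP11-109G23.3, had 32.4 with DMSO and 237 with LBH589 and was 12.7-fold higher. One of the lncRNAs at TOX, an HMG box factor of lymphocyte development, RP11-25K19.1, had 264 and 1291, a log2 difference of 3.09. MNX1-AS1, listed as LOC645249 beside the motor neuron homeobox gene MNX1, had 148 and 445, a difference of 2.38. RP11-888D10.3 at TWSG1, a secreted binder of bone morphogenetic proteins, had 71.4 and 224, a difference of 2.45. These 4 lncRNAs were all well above background on both arrays and higher with LBH589.

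The lower developmental members included RP11-328M4.2 at FOXP4, a forkhead factor, with 316 with DMSO and 21.5 with LBH589, 8.42-fold lower. AC005592.2 at SPRY4, an inhibitor of receptor tyrosine kinase signalling, had 243 and 17.703 and was 7.88-fold lower. The lncRNAs at GDNF, the ligand that drives ureteric bud outgrowth, at TGIF2 and at SOX12 were not well above background with LBH589. JF824130 at GDNF had 61.2 and 8.44, at least 2.42-fold lower, and RP5-1103G7.4 at SOX12 had 47.1 and 8.54, at least 1.87-fold lower.

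The lncRNAs of the HOX clusters, whose genes set position along the body axis, fell on both sides. HOTTIP starts at the distal end of the HOXA cluster beside HOXA13. Its signal was 4.25 with DMSO, not well above background, and 161 with LBH589, at least 13.1-fold higher. HOXA11-AS had 4.25 and 26.6, at least 2.17-fold higher. HOXB-AS5, named PRAC2 in RefSeq and lying beside PRAC at the HOXB cluster, had 2108 and 62.7, 19.3-fold lower, the largest drop among measured members. The 3 probes of HOXC-AS3 at HOXC10 had 970 and 61.5, 297 and 21.1, and 206 and 12.5, with differences of -3.18, -3.02 and at or below -3.03.

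Other HOX probes in the rows used were set beside them. All 4 HOXA lncRNA probes were listed as higher, and the non-members among them were HOTAIRM1, with 37.4 and 466 (4.44 on the log2 scale), and HOXA-AS4, at least 0.85 higher. All 10 HOXC lncRNA probes, the 2 of HOXB and the 1 of HOXD were listed as lower. The 10 HOXC probes read only HOXC-AS1, HOXC-AS2, HOXC-AS3 and HOTAIR, and both HOXB probes read HOXB-AS5. Only changed probes are in the lists, with 1056 lncRNA probes higher and 946 lower in the rows used. HOTAIR, the HOXC lncRNA known for acting on the HOXD cluster, was at or below -1.04, -1.97 and -2.996 through its 3 probes. HOXD-AS2 had 23546 and 1341, a difference of -3.34. The 6 HOX mRNA probes in the rows used, of HOXB5, HOXC4, HOXC6, HOXC9, HOXD10 and HOXD13, were also lower. HOXD13 was measured at -2.55, and the other 5 are bounds, from -0.35 to -2.84. No HOXA mRNA was in the rows used, and HOX genes outside them were not analysed here.

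**Figure D2:**
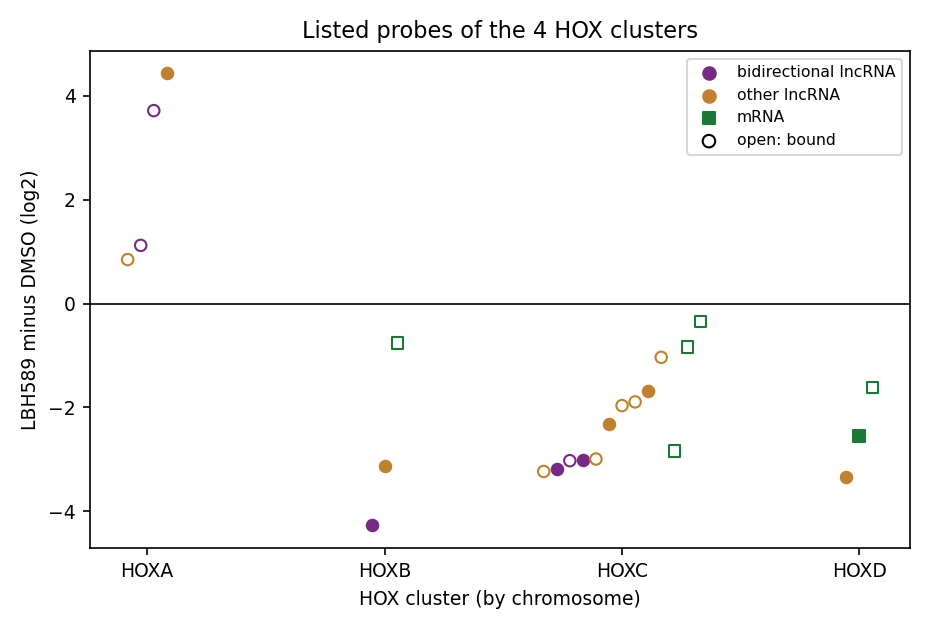
Log2 difference of LBH589 minus DMSO for each listed probe of the HOX clusters, by cluster, with filled points measured on both arrays and open points bounds. The 4 HOXA lncRNA probes lie above 0 and all probes of the HOXB, HOXC and HOXD clusters lie below it.

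At the 3 histone gene promoters with a member the lncRNA was listed as higher, as were 99 of the 143 members in all. RP11-196G18.23, annotated beside the H4 genes HIST2H4A and HIST2H4B, had a signal of 450 with DMSO and 2595 with LBH589, 10.03-fold higher. BC079832 at the H3 gene HIST1H3G had 151 and 721, a log2 difference of 3.05. RP11-15B17.1 at H2AFZ, which encodes the histone variant H2A.Z, had 6.03 and 19.2 and was at least 1.57-fold higher after scaling. Both lncRNAs at H3 and H4 genes were bright enough to be measured on both arrays.

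A group of ribosome and translation genes, to which GAS5 was added although its partner ZBTB37 is a zinc finger gene, held 7 members. All 7 were listed as higher, as were 99 of the 143 members in all. The 5 measured on both arrays lay between 2.45 and 3.50, GAS5 being the highest. GAS5, the growth arrest-specific host of small nucleolar RNAs beside ZBTB37, had 45.9 and 297 and was 11.3-fold higher through its probe here. SNHG9, another host of a small nucleolar RNA, beside the ribosomal protein gene RPS2, had 4785 and 15008 through one probe and 4820 and 15940 through the other, with differences of 2.45 and 2.52. The SNHG9 probes share 49 bases. RPL34-AS1 had 4.25 and 17.002, at least 1.39-fold higher.

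The 5 members at genes of sterol synthesis and its control were all listed as higher, as were 99 of the 143 members in all. At MVD, which makes isopentenyl diphosphate in the mevalonate pathway, RP5-1142A6.3 had 21.8 and 247 and MGC23284 (SNAI3-AS1 in RefSeq) had 329 and 975, with differences of 4.30 and 2.36. RP11-505K9.1 at MBTPS1, the protease that activates sterol regulatory element binding proteins, had 141 and 448, a difference of 2.47.

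Near genes of neurons and axon guidance 7 members were listed as higher and 4 as lower. Both lncRNA transcripts at SEMA5A, a semaphorin that guides axons, were not well above background with DMSO. They overlap on the same strand and may be forms of 1 RNA. CTD-2001E22.2 had 7.86 with DMSO and 919 with LBH589, at least 75.02-fold higher, and SNHG18 had 4.25 and 294, at least 24.0-fold higher. The lncRNA at CNIH3, an AMPA receptor subunit partner, had 13.1 and 221, at least 18.02-fold higher. On the lower side AC087886.1 at TRHDE, a peptidase that degrades thyrotropin-releasing hormone, had 1463 and 158, a difference of -2.41, and TRHDE-AS1 on the same gene, a natural antisense RNA, was at -3.64.

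At genes of cell death and cytokine signalling 3 members were listed as higher and 5 as lower. RP11-37B2.1 at RIPK2, a kinase downstream of the NOD receptors, was read by 2 probes, with 539 and 47.4 and with 569 and 66.2, and differences of -2.71 and -2.30. OSMR-DT, listed as CTD-2127H9.1 beside the oncostatin M receptor gene, had 67.7 and 4.07, at least 2.68-fold lower. RP11-535A19.2 at UVRAG, an autophagy gene, had 72.1 and 266 through the probe measured on both arrays, a difference of 2.68. At chromatin genes, RP11-515B12.1 beside ATF7IP, a partner of the H3K9 methyltransferase SETDB1, had 6.54 and 146, at least 11.95-fold higher.

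The remaining 4 of the 10 largest rises were at genes outside these groups. RP11-388C12.1 at FN3KRP, a kinase that removes sugar adducts from proteins, had 25.9 and 428 and was 28.8-fold higher. RP11-66N11.8 at FAM58A (CCNQ, a cyclin) had 680 and 4200 and was 10.74-fold higher, and LOC441461 (STX17-DT) at the autophagosome syntaxin STX17 had 247 and 1417, 9.98-fold higher. RP11-426L16.9 at PPM1J, a phosphatase gene, had 135 and 693, 8.92-fold higher. Among the largest falls, IQCH-AS1 at C15orf61 had 935 and 87.9, 6.11-fold lower, and LOC729970 (CNN3-DT) at the calponin gene CNN3 had 186 and 19.0, 5.62-fold lower.

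Promoters read by 2 or more member probes were compared within the promoter. There were 20, with 42 probes, and at 10 of them at least 2 probes were measured on both arrays. The spread between these probes (log2) was 0.21 at the median, about the size of the measurement error, and ran from 0.08 at RPS2 to 4.06 at LHX1. The 2 probes at RPS2 share 49 bases and the 2 at RNPC3 share 51, so neither pair gives independent readings. At MVD the spread was 1.93, between transcripts listed under 2 lncRNA symbols. These transcripts overlap on the same strand and may be forms of the same RNA. The 3 PCBP1-AS1 probes at PCBP1, an RNA-binding protein gene, lay at -1.97, -1.96 and -1.76 but share 50 or 51 bases in pairs. RP11-439A17.7 at FAM72B and SRGAP2B at FAM72D, a duplicated gene pair, share 41 bases, so these probes may read either copy.

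**Figure D3:**
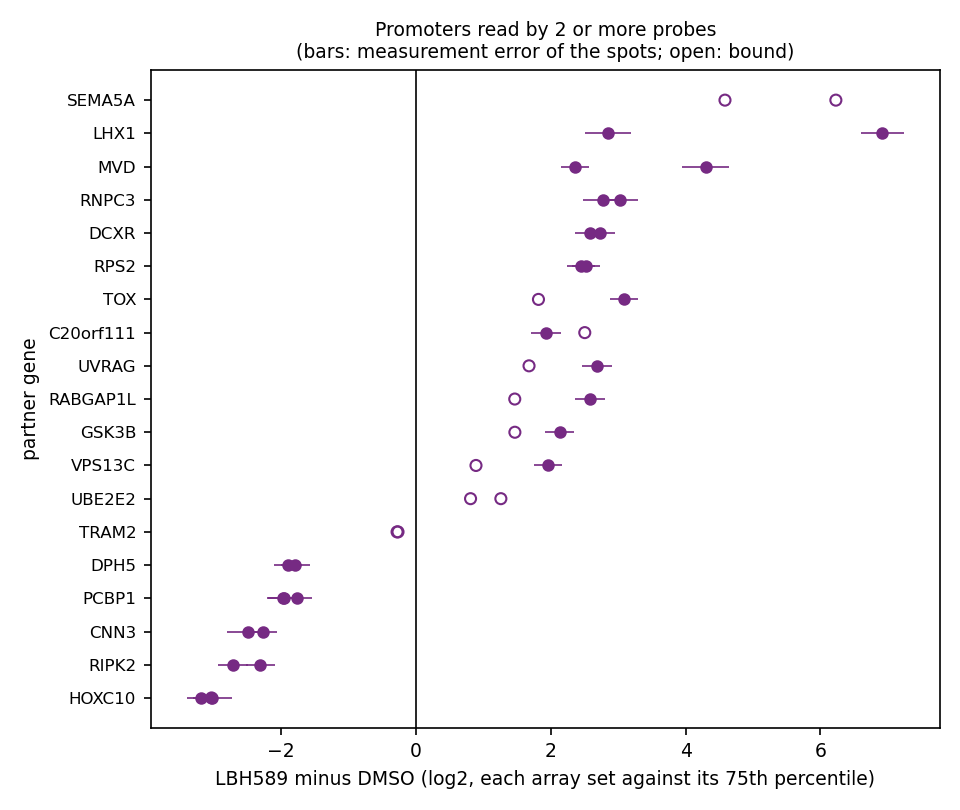
Log2 difference of LBH589 minus DMSO for every probe at 19 of the 20 partners read by at least 2 probes, with bars for the measurement error of measured probes and open circles for bounds. Where at least 2 probes of a promoter were measured, they are farthest apart at LHX1 (4.06) and MVD (1.93). The distance between a bound and another point is not a measured spread.

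For 19 of the member symbols, 38 further probes of other annotation classes were in the rows used, and all 38 were in the list of the same direction as the member. Both lists hold changed probes only, so a probe that did not pass is not seen here. The other probes of RP11-125B21.2 at VLDLR included one measured at -2.98, with 217 and 15.8, where the member itself gave no value. At MPC1, the mitochondrial pyruvate carrier gene, the member RP1-168L15.5 had 70.7 and 304, a difference of 2.90, while a noncoding transcript overlapping MPC1 on its own strand was at -2.38.

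The mRNA of the partner was in the rows used for 14 members, and its difference is set beside that of the lncRNA. In 11 pairs both had the same direction and in 3 the directions were opposite. Of the 7 pairs with both RNAs measured on both arrays, 6 had the same direction. Partners were matched by gene, and the listed ARHGEF35 transcript starts 98782 bases from OR2A9P, while another transcript of the gene starts 343 bases away. Of the 13 pairs with a listed mRNA that starts within 1000 bases of the lncRNA, 10 had the same direction, among them 5 of the 6 measured on both arrays. Since both RNAs had to be in a list of changed probes, partners that did not change are not seen and these counts are a description.

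The pairs higher on both sides were 5. JAKMIP1 mRNA, for a microtubule-binding protein of neurons, had 98.6 with DMSO and 526 with LBH589, a difference of 3.21, beside at least 2.91 for RP11-586D19.1. HIST2H4B mRNA had 166 and 799, a difference of 3.06, beside 3.33 for its lncRNA, and HIST1H3G mRNA had 101 and 769, a difference of 3.73, beside 3.05. PARP2 mRNA, for a poly(ADP-ribose) polymerase of DNA repair, had 4.25 and 31.7, at least 2.59-fold higher. Its lncRNA RPPH1, the RNA subunit of ribonuclease P, which RNA polymerase III transcribes, had 116 and 692 and was 10.4-fold higher. BAIAP2 mRNA was at 2.24 and 1.96 through 2 probes beside at least 0.83 for CTD-2561B21.9.

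The pairs lower on both sides were 6. G0S2 mRNA, for an inhibitor of adipose triglyceride lipase, had 2356 and 58.6 and was 23.1-fold lower, beside 129 and 21.3 for RP1-28O10.1, a difference of -1.80. TNFRSF10A mRNA, for the TRAIL receptor DR4, had 1125 and 147, a difference of -2.13, beside 1168 and 184 for LOC389641 (TNFRSF10A-DT), a difference of -1.87. Each carries a measurement error of 0.21. NETO1, an auxiliary subunit of glutamate receptors, had mRNA at -1.96 beside -3.21 for RP11-676J15.1. The ARHGEF35 mRNA, which is not the transcript head to head with OR2A9P, was at -2.30 beside -3.59 for that lncRNA. MTA1 mRNA, for a subunit of the NuRD deacetylase complex, was at least 8.97-fold lower beside at least 2.25-fold for RP11-521B24.3, and PRKAG2 and its lncRNA were both bounds, at or below -0.40 and -1.02.

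The 3 opposite pairs had a higher lncRNA and a lower mRNA. RP11-685M7.3 had 25.2 with DMSO and 102 with LBH589, a difference of 2.82 with an error of 0.32, while 2 probes of EIF4G2 mRNA, for a translation initiation factor of the eIF4G family, were at -2.12 and -2.03, the latter from a transcript that starts 1301 bases from the lncRNA. RP1-7G5.6 had 4.25 and 66.2, at least 5.41-fold higher, beside 325 and 45.5 for the mRNA of GLTP, a glycolipid transfer protein, 4.10-fold lower. H2AFZ mRNA had 31580 and 4198 and was 4.32-fold lower beside a lncRNA at least 1.57-fold higher. That lncRNA has no usable bound without scaling between the arrays, where 11 of 13 pairs had the same direction. No pair had a lower lncRNA with a higher mRNA.

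**Figure D4:**
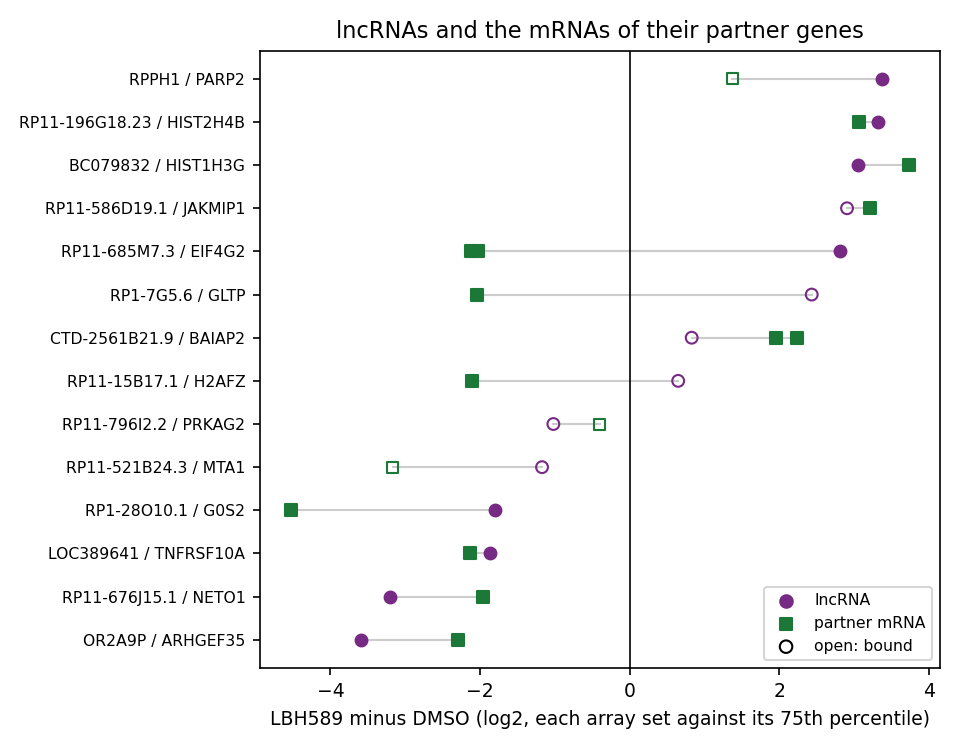
Log2 difference of LBH589 minus DMSO for 14 lncRNAs (circles) and the listed mRNAs of their partner genes (squares, 1 for each mRNA probe), with open symbols for bounds. The symbols of a row lie on the same side of 0 in 11 rows and on opposite sides at EIF4G2, GLTP and H2AFZ.

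The distance between the starts was set beside the difference of the measured members. Among higher members the median difference was 2.46 for 11 within 100 bases, 2.58 for 19 between 100 and 250, 2.68 for 19 between 250 and 500 and 2.82 for 8 farther apart. Among lower members it was -1.84 for 4 within 100 bases, -2.24 for 9, -2.31 for 5 and -3.18 for 5 over the same steps. Each step holds under 20 members, and the ranges of the steps overlap within each list. These points share 2 arrays, and no trend was tested.

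**Figure D5:**
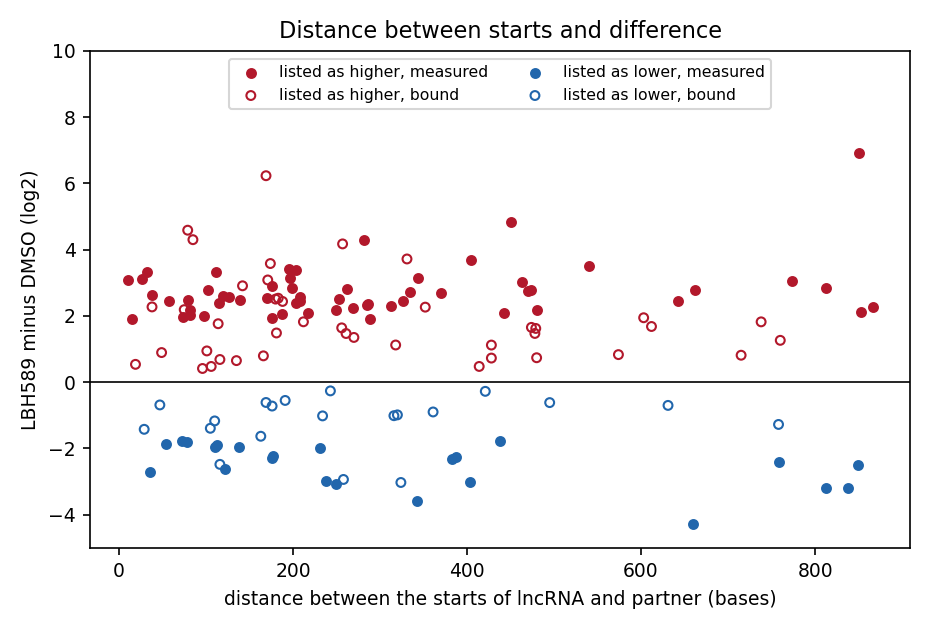
Log2 difference of LBH589 minus DMSO against the distance in bases between the annotated starts (hg19) of each lncRNA and its partner, with filled points measured on both arrays and open points bounds. The starts lie 10 to 866 bases apart, and members of both lists occur at short and at long distances.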

How the data were processed

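Each of the 2 arrays carries RNA of 1 culture of SK-NEP-1 cells. The authors deposited Agilent Feature Extraction output, whose processed signal is an intensity after background subtraction within the array, and a table of log2 processed values whose normalization is not given in the sources used here. The submitters' processing notes name Feature Extraction 10.7.3.1 and the file headers 11.0.1.1. The deposited files also give the error of the processed signal, the median signal of spot and background, and, as a score, flags of 0 or 1 that Feature Extraction set for outliers and for spots well above background.

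Control spots were dropped, as were 62 spots with an outlier flag on an array. Spots of a probe were averaged as log2, and the 75th percentile of each array over 58921 probes was subtracted. Differences are LBH589 minus DMSO, with bounds as stated in the report. With 1 array per condition no test was made. The functions were run on simulated arrays with known differences placed on bright probes. Both simulated arrays had the same background calls, so the handling of bounds was not checked.

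Class, partner, position (hg19) and probe sequence came from the annotation columns of the study's lists of changed probes, in the first 1406 and 1363 lncRNA rows and the first 1002 and 952 mRNA rows, which were the rows used here. Their values were not used. Probes outside these rows have no gene name here. RefSeq names and promoter windows (GRCh38.p14) were matched by accession, symbol or synonym, which gave 117 of 121 partners a RefSeq name and 35 of 126 lncRNA symbols. Where a gene has several starts the first window in the table was used.

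The members, gene groups and motifs were chosen with earlier results of these data known. The text names the 10 members that rose and the 10 that fell most among those measured, members whose partner mRNA was listed, members sharing a promoter and those in the gene groups, with values for a selection of the last 2 kinds. Values of some single genes are left out of the text. Members outside this rule are given by counts, except RP1-168L15.5, RP11-125B21.2, RP11-439A17.7, SRGAP2B and RP11-539G18.2, chosen after their values were seen. Alternatives were quantile normalization, normexp with an offset of 50 on the median and background signals followed by quantile normalization (limma 3.58.1, R 4.3.3), no scaling, another percentile set, the deposited table, measured probes only, own signals in place of bounds, a floor of 5, flagged spots kept and 1 probe per symbol. A limit of 1000 bases between the starts of a lncRNA and the listed mRNA was added after seeing the data.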

Additional observations from a re-analysis of the deposited data

How the results depend on the processing

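Of the named members, 4 lost their value without scaling, RP11-15B17.1, RPL34-AS1 and RP11-53O19.1 among them, and 36 when only probes measured on both arrays were kept. Those with a value had the same direction under all alternatives run. A bound that pointed the other way counted as no value, so members with a bound could not reverse wherever bounds were used. The members were also listed for this difference on the same arrays, so the shared direction is a description. At least 2-fold higher were 57 members when only probes measured on both arrays were kept, against 86, because bounds drop out. At least 5-fold higher were 18 after normexp with quantile normalization and 18 without scaling, against 52. At least 5-fold lower were 2 after normexp with quantile normalization, 27 without scaling, 24 in the deposited table and 22 with own signals in place of bounds, against 14. Without scaling the median difference of all measured probes is -0.83, against -0.04 with it. For pairs of lncRNA and partner mRNA, 6 of 7 measured pairs had the same direction, against 11 of 14, as had 11 of 13 without scaling and 10 of 13 with a listed mRNA that starts within 1000 bases, a limit chosen after seeing the data. In 53 comparisons a count or promoter feature stayed within its limit, the pair counts without scaling and within 1000 bases among them. The limit was 1.5 times for a count and the 95% confidence interval for a motif share. For the CpG ratio it was the standard deviation over the partner windows. No paired analysis was possible because each condition has 1 array. Signal over background limits 62 members to a bound, and a single array per condition limits all of them.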
